A study of Mus musculus with 6 samples.

Results

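A set of 9 transcription factor genes that mark the endothelial lineage was followed in mouse lung endothelial cells. They were taken by gene symbol as Erg, Fli1 and Ets1 (ETS family), Sox7, Sox17 and Sox18 (SOX-F group), Tal1 and Lyl1 (the SCL pair of basic helix-loop-helix factors) and Gata2, and all 9 had a row among the 18956 genes of the table. RNA sequencing covered 3 libraries labelled WT and Cre-negative and 3 labelled CSE-KO and Cre-positive. CSE is cystathionine gamma-lyase, an enzyme that releases cysteine from cystathionine. The study's title places it in work on cystine import, histone acetylation and vascular growth, and the comparison here asks how factors that govern endothelial genes differed between the labelled groups. The sources used here do not name the Cre driver, the deleted part of the gene, the age of the animals or whether replicates were separate animals or cultures, so a p-value here speaks of spread among libraries that may be technical replicates.

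ETS factors bind DNA at a GGAA core. Erg and Fli1 hold endothelial genes active and keep inflammatory genes low, and Ets1 takes part in vessel growth and is also made by lymphocytes. SOX-F factors bind through an HMG box and can stand in for one another in vessel development; in the mouse, Sox18 also turns on Prox1 at the start of lymphatic development and Sox17 favours arterial fate. Tal1 and Lyl1 bind E-box sequences together with E proteins and are joined by Lmo2 and Ldb1 to GATA factors. Gata2, Fli1 and Tal1 activate one another in blood and endothelial precursors of the mouse embryo.

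Values are normalized counts, that is whole numbers read as gene counts divided by a factor for each library. Library totals ran from 6028772 to 6052275 for WT and from 5698922 to 5765008 for the libraries labelled CSE-KO. Cth, the gene of CSE, went against its label, reading 29, 27 and 26 (WT 1 to 3) against 49, 43 and 63 (CSE-KO 1 to 3; log2 fold change 0.89, limma adjusted p = 0.00079). A sum over the whole gene does not check a deletion of some exons, and group names below are those of the labels. The libraries labelled CSE-KO were uneven, since CSE-KO 1 was the nearest of them to WT in 58.0% of the genes that changed. Of the markers of endothelium, the junction genes Pecam1 (2314 ± 22.9 in WT and 1879 ± 5.86 in CSE-KO, mean ± SD, n = 3 libraries per group) and Cdh5 (2829 ± 17.8 and 2673 ± 6.43) were abundant, while Vwf, the von Willebrand factor gene, lay between 1 and 17 in every library. Pecam1 and Cdh5 fell less (log2 fold changes −0.30 and −0.08) than the median of 16 pan-endothelial markers (−0.86).

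Of the 9 factors, Lyl1, Sox18 and Fli1 fell more than 2-fold in the libraries labelled CSE-KO, Tal1, Erg and Sox7 fell by less, Ets1 rose slightly, and Gata2 and Sox17 did not pass the test. A change was called where the p from limma, adjusted by Benjamini-Hochberg over the 13750 genes tested, was below 0.05. By that rule 7 of 9 members changed, where 77.4% of all tested genes did, so the number of calls alone says nothing about these factors. In direction, 6 of 9 fell where 39.0% of tested genes fell, and 1 rose where 38.3% rose. A fall of at least 2-fold was called in 3 of 9, against 12.3% of tested genes. The median log2 fold change of the 9 was −0.51, against 0.0014 over all tested genes. In 8 of the 9 the groups did not overlap, which was also so in 80.4% of tested genes, and in 6 of 9 all CSE-KO libraries were below WT, against 40.4%. When a fold beyond 1.2 was required, 6 of 9 passed where 48.8% of tested genes did, all 6 of them lower in CSE-KO, against 25.7%. These shares describe the members and were not tested.

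**Figure D1:**
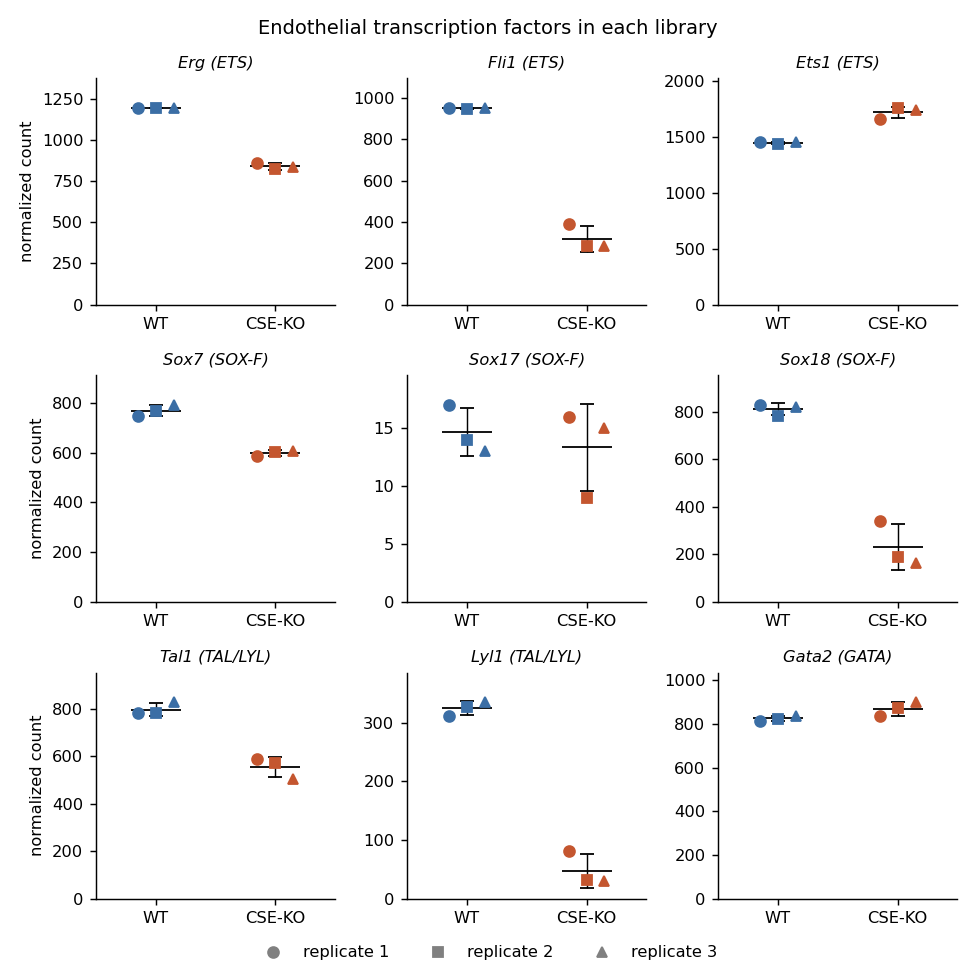
Normalized counts of each factor (y axis, linear and starting at 0, a separate scale per gene) in the WT and CSE-KO libraries (x axis); symbols mark replicates, and black lines with bars give the group mean ± SD, n = 3. Fli1, Sox18 and Lyl1 stand far below WT in all 3 CSE-KO libraries with CSE-KO 1 the highest of them, whereas the Sox17 groups overlap and the Gata2 means are 824.7 and 869.3.

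**Figure D2:**
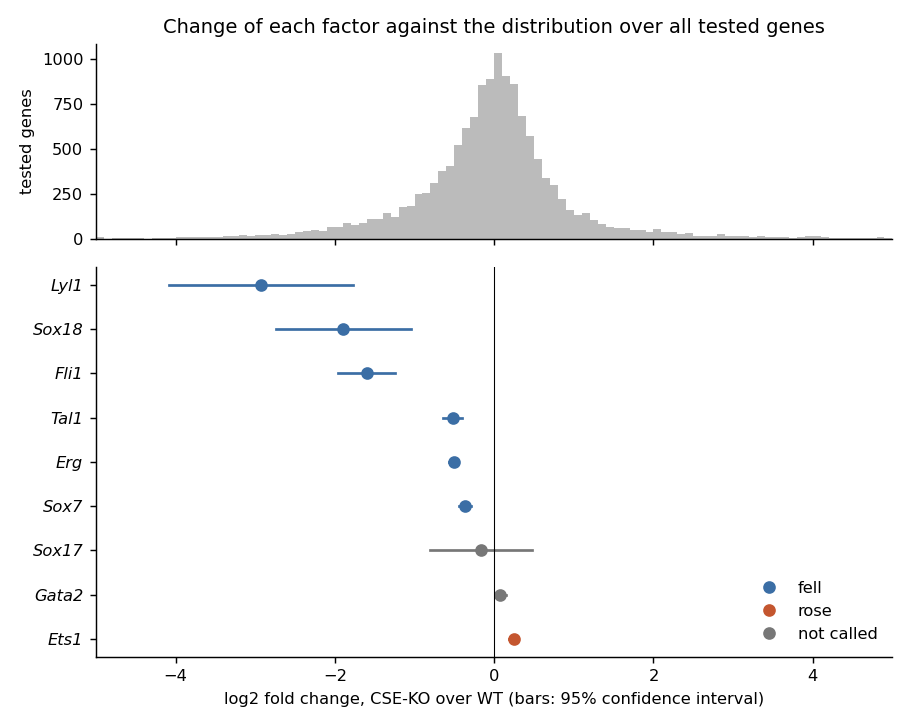
Upper panel, number of tested genes by log2 fold change (CSE-KO over WT; genes beyond ±5 are drawn at the ends); lower panel, each factor's log2 fold change with its 95% confidence interval. Lyl1 at −2.92, Sox18 at −1.89 and Fli1 at −1.60 lie in the lower tail, and Gata2 at 0.08 and Ets1 at 0.25 lie near the centre.

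Among the ETS factors, Fli1 fell most. Fli1 (ENSMUSG00000016087) lies on the minus strand of chromosome 9, from 32422204 to 32542861 on mm10. Its normalized counts, in order of replicate, read 951, 947 and 951 (WT) against 388, 281 and 282 (CSE-KO). The WT libraries were nearly equal, and CSE-KO 1 stood above the other CSE-KO libraries and far below WT. The log2 fold change was −1.60 (SE 0.14, 95% interval −1.96 to −1.24, adjusted p = 0.00019), a 3.03-fold fall. Libraries that differed by about counting noise were also merged, with WT 1 to 3 counted as 1 sample and CSE-KO 2 and 3 as 1 sample, which leaves a WT arm of 1 sample and 1 residual degree of freedom. With these merged libraries the log2 fold change of Fli1 was −1.52 and the call was lost (adjusted p = 0.07).

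Erg (ENSMUSG00000040732, chromosome 16, 95359169 to 95586593, minus strand), the closest relative of Fli1, read 1196, 1196 and 1197 (WT) against 863, 823 and 837 (CSE-KO). Both groups were tight and did not overlap. The WT SD of 0.58 was below counting noise, so it does not show how much independent samples would vary. Erg fell 1.42-fold (log2 fold change −0.51, SE 0.03, adjusted p = 2.3e-08), and 23.8% of tested genes had a lower log2 fold change.

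Ets1 (ENSMUSG00000032035, chromosome 9, 32636221 to 32757820, plus strand) moved the other way. It read 1448, 1436 and 1455 (WT) against 1656, 1756 and 1735 (CSE-KO), with no overlap and with CSE-KO 1 the nearest to WT. Its log2 fold change of 0.25 (SE 0.03, adjusted p = 5.2e-06) was a rise of 1.19-fold that did not exceed a fold of 1.2 when tested against it (adjusted p = 1).

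Within the ETS group the ratios between members did not overlap between the labelled groups. The log2 ratio of Erg to Fli1 was 0.33 ± 0.0032 in WT and 1.42 ± 0.23 in CSE-KO, and that of Fli1 to Ets1 was −0.61 ± 0.0064 and −2.45 ± 0.31. For Erg to Ets1 it was −0.27 ± 0.0091 and −1.03 ± 0.08. A ratio within a library does not depend on how that library was scaled. Each of these 3 differences gave an exact permutation p of 0.1, the smallest that 3 libraries against 3 allow (two-sided, 0.117 after adjustment over 7 ratios within families). Per kilobase of exon, Fli1 made up 34.6% ± 0.025 of the summed level of the 3 ETS factors in WT and 16.9% ± 2.7 in CSE-KO, Ets1 21.6% ± 0.092 and 37.8% ± 2.32, and Erg 43.8% ± 0.091 and 45.3% ± 0.51.

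Fli1 and Ets1 are neighbours that start away from each other, 93.4 kb apart, so the factor with the 3.03-fold fall and the one that rose sit side by side. Erg has the same arrangement with Ets2, another ETS gene, across 115.5 kb. Ets2 read 1041, 1059 and 1087 (WT) against 1026, 1040 and 1053 (CSE-KO). Its groups overlapped and it did not pass (log2 fold change −0.03, adjusted p = 0.31), with a sign that turned positive under scaling to the upper quartile or to equal totals. On the other side of Erg, 58.9 kb away, the potassium channel gene Kcnj15 fell from 410, 426 and 407 to 73, 18 and 15 (log2 fold change −3.91, adjusted p = 0.0056), a call lost with WT counted as 1 sample (−3.91, adjusted p = 0.082) and with the merged libraries (−3.55, adjusted p = 0.27).

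Among the SOX-F factors, Sox18 fell most and with a wide spread. Sox18 (ENSMUSG00000046470, chromosome 2, 181669836 to 181671640, minus strand) read 829, 784 and 822 (WT) against 339, 187 and 163 (CSE-KO). The groups did not overlap, and CSE-KO 1 was well above the other CSE-KO libraries. The log2 fold change was −1.89 (SE 0.31, 95% interval −2.74 to −1.05, adjusted p = 0.0047), a 3.72-fold fall. With WT counted as 1 sample the log2 fold change was −1.90 and the call was lost (adjusted p = 0.082), as it was with the merged libraries (−1.73, adjusted p = 0.25). Tcea2, a transcription elongation factor gene 8.7 kb from Sox18, read 146, 129 and 132 (WT) against 72, 46 and 55 (CSE-KO) (log2 fold change −1.25, adjusted p = 1.7e-05). Beside other members that fell, neighbours moved both ways. Log2 fold changes were 0.23 for Trmt1, 1.6 kb from Lyl1, and 0.76 for Pinx1, 23.8 kb from Sox7. Falls were seen for Arhgap32 (−0.55), 153.8 kb from Fli1, and Cyp4b1 (−1.94), 553.0 kb from Tal1. Nfix, which overlaps Lyl1 by 4 exonic bases, fell too (−0.89). Msra, 171.9 kb from Sox7, did not pass (0.11, limma adjusted p = 0.18). Stil, 13.2 kb from Tal1, rose by 0.22, a call lost with WT counted as 1 sample (adjusted p = 0.072) and with the merged libraries (0.066). Prox1, the lymphatic regulator that Sox18 is known to activate, had a log2 fold change of −1.78 (SE 0.20, adjusted p = 0.0012), and of −1.67 with the merged libraries, where its call was lost (adjusted p = 0.17).

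Sox7 (ENSMUSG00000063060, chromosome 14, 63943673 to 63950732, plus strand) read 749, 766 and 792 (WT) against 585, 604 and 605 (CSE-KO). Here CSE-KO 1 was the lowest library, unlike in the other 5 members that fell. The fall was 1.29-fold (log2 fold change −0.36, SE 0.03, adjusted p = 1.7e-06).

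Sox17 (ENSMUSG00000025902, chromosome 1, 4490931 to 4497354, minus strand) was scarcely detected. It read 17, 14 and 13 (WT) against 16, 9 and 15 (CSE-KO), so the groups overlapped. The log2 fold change of −0.17 had a 95% interval from −0.81 to 0.48 (adjusted p = 0.62), which leaves room for a moderate fall as well as a moderate rise at this depth. Without CSE-KO 2 its sign turned, to 0.09. Its exons share 804 bases with Gm37587 on the opposite strand, and the sources used here do not say whether counting used the strand, so reads of the pair cannot be told apart.

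Sox18 was the main SOX-F transcript in WT. Per kilobase of exon, Sox18 held 68.0% ± 0.86 of the summed SOX-F level in WT and 42.4% ± 9.92 in CSE-KO, Sox7 31.6% ± 0.91 and 56.8% ± 9.88, and Sox17 held 0.42% ± 0.059 and 0.86% ± 0.23. In CSE-KO 1 Sox18 was still the larger share at 53.7%, while in CSE-KO 2 it held 38.4% and in CSE-KO 3 less. The log2 ratio of Sox7 to Sox18 was −0.08 ± 0.06 and 1.45 ± 0.59 and that of Sox17 to Sox18 −5.75 ± 0.18 and −4.02 ± 0.54, each at the smallest possible exact permutation p of 0.1 (0.117 adjusted). For Sox7 to Sox17 the exact permutation p was 0.5, with a difference of −0.20. The summed SOX-F level was 737.2 ± 16.2 per kilobase in WT and 325.8 ± 55.9 in CSE-KO.

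**Figure D3:**
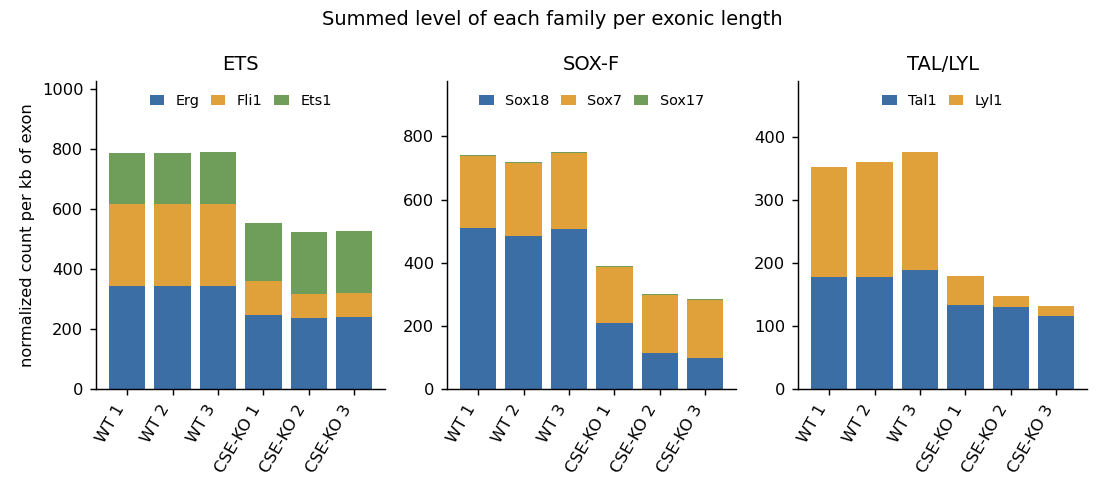
Stacked bars of normalized counts per kilobase of exon (y axis, from 0) in each library (x axis) for the ETS, SOX-F and TAL/LYL members; each colour is a gene. The TAL/LYL bars have a mean of 362.3 per kilobase in WT and 153.2 in CSE-KO, differing most in Lyl1, and the SOX-F bars 737.2 and 325.8, differing most in Sox18.

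The SCL pair parted too. Lyl1 (ENSMUSG00000034041, chromosome 8, 84701449 to 84704940, plus strand), which in the adult mouse helps newly formed vessels mature, read 312, 326 and 335 (WT) against 81, 31 and 30 (CSE-KO). CSE-KO 1 stood well above the other CSE-KO libraries and still lay far below WT. The 7.59-fold fall (log2 fold change −2.92, SE 0.44, 95% interval −4.08 to −1.77, adjusted p = 0.0026) was deeper than that of all but 1.43% of tested genes. Without CSE-KO 1 it was −3.39 on the log2 scale. With the merged libraries it was −2.69, and the call was lost (adjusted p = 0.19).

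Tal1 (ENSMUSG00000028717, chromosome 4, 115056426 to 115071755, plus strand) read 781, 782 and 829 (WT) against 587, 574 and 506 (CSE-KO). The groups did not overlap, with CSE-KO 3 the lowest. Tal1 fell 1.44-fold (log2 fold change −0.52, SE 0.05, adjusted p = 1.3e-05). Per kilobase of exon, both genes of the pair stood level in WT, with 182.1 ± 6.26 for Tal1 and 180.2 ± 6.44 for Lyl1, and apart in CSE-KO, with 126.9 ± 9.93 and 26.3 ± 16.2. The log2 ratio of Tal1 to Lyl1 was 1.296 ± 0.03 and 3.70 ± 0.74 (exact permutation p = 0.1, the smallest possible, 0.117 adjusted).

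Gata2 (ENSMUSG00000015053, chromosome 6, 88193891 to 88207032, plus strand) read 814, 824 and 836 (WT) against 837, 871 and 900 (CSE-KO). The lowest CSE-KO library was just above the highest WT library. The log2 fold change of 0.08 (SE 0.03, 95% interval 0.0042 to 0.15) did not pass (adjusted p = 0.051). It did pass without CSE-KO 1 (adjusted p = 0.0083), and also at equal totals per library (log2 fold change 0.15, adjusted p = 0.0013). Equal totals shifted all genes upward, with a median log2 fold change over tested genes of 0.0771 against 0.0014 in the main test. In none of the 20 alternatives was the value of Gata2 below 0.

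Promoter sequences from RefSeq (GRCm38.p6) were at hand for 4 of the 9 members, namely Erg, Tal1, Lyl1 and Gata2. Those of the SCL pair and Gata2 are shown, since Lyl1 had the deepest fall, Tal1 a small one and Gata2 none that passed. Each is the 250 bases before the annotated start nearest to that of the table, with the ETS core GGAA, read on either strand (TTCC on the strand shown), in capitals.
Lyl1 (chr8:84701207-84701456, plus strand): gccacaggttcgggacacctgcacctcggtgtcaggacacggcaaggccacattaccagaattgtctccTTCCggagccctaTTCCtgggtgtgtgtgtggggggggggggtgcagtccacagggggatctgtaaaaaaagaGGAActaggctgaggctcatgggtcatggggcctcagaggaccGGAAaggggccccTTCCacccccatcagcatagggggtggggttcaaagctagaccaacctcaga
Tal1 (chr4:115056176-115056425, plus strand): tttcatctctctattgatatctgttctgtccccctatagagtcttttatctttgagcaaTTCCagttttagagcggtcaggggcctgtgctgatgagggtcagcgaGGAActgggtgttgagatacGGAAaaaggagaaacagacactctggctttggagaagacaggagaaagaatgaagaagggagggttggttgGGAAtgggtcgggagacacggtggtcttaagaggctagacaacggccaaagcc
Gata2 (chr6:88193641-88193890, plus strand): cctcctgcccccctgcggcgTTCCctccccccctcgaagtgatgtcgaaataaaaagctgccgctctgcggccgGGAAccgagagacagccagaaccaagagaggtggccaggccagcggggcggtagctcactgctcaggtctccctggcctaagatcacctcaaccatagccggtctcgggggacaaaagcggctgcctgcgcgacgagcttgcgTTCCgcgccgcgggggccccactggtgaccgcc
The core was found 5 times for Lyl1, 4 times for Tal1 and 3 times for Gata2, where the median of 32851 promoter windows of this length was 3 and 93.4% held at least 1. Of the 3 annotated starts of Erg, the window at the start of the table held 0 and the other 2 windows held 4 and 2. The second starts of Tal1 and Gata2 held 3 and 1. The E-box CANNTG was found 1 time for Lyl1 and in neither of the other 2 windows (66.2% of all windows held it). The GATA word GATAA was found 1 time for Tal1 (22.6% of windows), and the SOX word ACAAT 1 time for Lyl1 (27.7%), both strands read. No match overlapped one of another motif. These are letter matches and not binding sites.

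Per exonic length, the order of the factors differed between the groups. In WT, Sox18 led at 501.0 ± 14.9 normalized counts per kilobase, then came Erg at 345.2 ± 0.17, Fli1 at 272.4 ± 0.66 and Sox7 at 233.1 ± 6.56. Tal1, Lyl1 and Ets1 (170.6 ± 1.13) followed, of which Tal1 and Lyl1 did not differ beyond their spread, then Gata2 at 152.8 ± 2.04 and, far below, Sox17 at 3.07 ± 0.44. In CSE-KO, Erg led at 242.6 ± 5.86, followed by Ets1 at 202.4 ± 6.22, Sox7 at 181.3 ± 3.42, Gata2 at 161.0 ± 5.84 and Sox18 at 141.8 ± 58.9, whose spread reached its neighbours on both sides. Tal1 stood at 126.9, Fli1 at 90.9 ± 17.6, Lyl1 at 26.3 and Sox17 at 2.79 ± 0.79. Any removal of reads with a common start before counting would understate short, abundant genes such as Sox18. Whether this was done is not stated. Between WT libraries an index of spread, where 1 is counting noise, was 0.709 to 0.757 over all tested genes. In genes under 0.01 counts per base it was 0.933 to 0.99. For CSE-KO 2 and 3 it was 0.86 and 1.06, and pairs with CSE-KO 1 had 1.628 and 1.917 against 1.108 and 1.271. Whether removed reads bear on this was not tested.

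The replicates of the strongest falls were uneven in the same way. In 5 of the 6 members that fell, the highest of the 3 CSE-KO values was that of CSE-KO 1. Counting rises and falls, CSE-KO 1 was the nearest to WT in 6 of the 7 members that changed. Among all genes that changed this was so in 58.0%, so the trait is not particular to these factors. The coefficient of variation within CSE-KO was 61.6% for Lyl1, 41.6% for Sox18 and 19.4% for Fli1, against 2.41% for Erg, 1.88% for Sox7 and a median of 5.21% over all tested genes. In WT it was at most 3.57% in every member but Sox17 (14.2%). In bulk RNA, fewer cells of a type and less RNA per cell cannot be told apart.

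For each factor, the 2 genes with the most similar pattern were sought among 10436 coding genes with a mean of at least 50 (10437 for Sox17) by the root mean square distance of their 6 log2 values from the WT mean. Lyl1 was nearest to Hspa12b, an endothelial heat shock protein 70 relative, at a distance of 0.057, and next to Ushbp1 at 0.102, both of which also had CSE-KO 1 above the other CSE-KO libraries (Hspa12b 925, 937 and 963 against 237, 98 and 93). Sox18 was nearest to the mitotic kinase gene Aurkb (421, 423 and 425 against 161, 94 and 89) at 0.070 and to the spindle gene Ska1 at 0.079. Fli1 was nearest to the kinase gene Snrk at 0.018 (1640, 1595 and 1603 against 657, 488 and 475) and to Cnnm3 at 0.027. Within a distance of 0.1, Lyl1 had 1 such gene, Sox18 had 7 and Fli1 had 89, whereas the more common patterns of Erg, Ets1, Sox7, Tal1 and Gata2 were shared by 811, 1650, 1001, 509 and 1867 genes. Their nearest genes were Xiap and Cd47 for Erg, Tiprl and Srm for Ets1, Pdp2 and Peli2 for Sox7, Trp53i13 and Cdk5rap2 for Tal1 and Capza1 and Prpf6 for Gata2, at distances between 0.0099 and 0.03. Sox17 had none within 0.1, its nearest being Zfp870 at 0.148 and Per3 at 0.149.

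The partners of the SCL pair fell more often than they rose. Of 12 tested partners and E proteins, 9 fell, 2 rose and 1 did not pass, with a median log2 fold change of −0.58. Of all tested genes, 39.0% fell and 38.3% rose. Lmo2, the LIM protein that bridges Tal1 and GATA factors, read 764, 750 and 756 (WT) against 379, 266 and 239 (CSE-KO), a 2.62-fold fall without overlap and with CSE-KO 1 again the highest. With the merged libraries its log2 fold change was −1.29 and the call was lost (adjusted p = 0.16). Its binding partner Ldb1 fell by 0.13 on the log2 scale (adjusted p = 0.0011), a call lost at equal totals (adjusted p = 0.074) and with the merged libraries (0.053). The E protein genes Tcf3 and Tcf4 fell by 0.59 and 0.57 on the log2 scale, and Tcf12 rose by 0.18. Cbfa2t3, a corepressor that joins this complex, fell 4.19-fold from 231 ± 17.6 to 55.0 ± 6.93, and Lmo4, a relative of Lmo2, rose 2.17-fold from 252 ± 9.54 to 547 ± 11.1. Of the 4 ID protein genes, whose products sequester E proteins, Id1 (−0.71), Id4 (−0.54) and Id3 (−0.14) fell and Id2 did not pass (−0.09), with a median of −0.34. The merged libraries left 1 of the 4 called, since Id4 (−0.51, adjusted p = 0.11) and Id3 (−0.14, adjusted p = 0.069) lost their calls, and Id4 lost its call with WT counted as 1 sample too (adjusted p = 0.073). At equal totals Id3 did not pass (adjusted p = 0.082).

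The relatives of each family did not move as one. Of 15 other ETS genes tested, 6 rose, 7 fell and 2 did not pass, with a median of −0.03. Etv1 fell 3.84-fold from 78.7 ± 2.52 to 20.3 ± 3.51, Etv5 1.92-fold, Elk4 1.49-fold and Elf2 by 0.37 on the log2 scale. Spi1, which sets myeloid fate, was listed at 0 throughout WT against 18, 30 and 31 (CSE-KO). Of 6 other SOX genes tested, 4 rose, 1 fell and 1 did not pass, with a median of 0.66. Sox9, a factor of cartilage and epithelia, rose 12.2-fold from 19, 12 and 25 to 176, 230 and 275, Sox11 rose from 5, 8 and 1 to 17, 24 and 22, Sox4 rose 1.28-fold from 1420 ± 12.9, and Sox13 fell 1.54-fold.

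The other GATA factors were far below Gata2 in WT, and all 3 that were tested rose. Together with the FOG cofactors, 4 of 5 tested genes rose and 1 fell (median log2 fold change 1.12). Gata3 had 6, 7 and 3 (WT) against 82, 92 and 105 (CSE-KO), Gata4 had 1, 0 and 3 against 41, 41 and 70, and Gata6 had 101, 99 and 105 against 196, 221 and 252. Their GATA cofactors moved apart, with Zfpm2 up by 0.31 and Zfpm1 down by 0.37 on the log2 scale. Per kilobase of exon, Gata2 stayed the most abundant GATA gene in CSE-KO, at 161.0 against 34.3 for Gata6, 23.4 for Gata3 and less for Gata4. Runx1, which drives blood cell formation from endothelium in the embryo and is also made by leukocytes, rose 4.53-fold from 246, 245 and 225 to 1051, 1063 and 1131 (adjusted p = 5.9e-11). Of the other RUNX genes tested, Runx2 rose by 0.22 and the partner Cbfb fell by 0.17 on the log2 scale, for a median of 0.225 over the 3. The call of Runx2 was lost with WT counted as 1 sample (adjusted p = 0.1049) and with the merged libraries (0.099).

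Transcripts of other cell types moved in the same libraries. Of 20 macrophage markers, 18 rose and 1 fell, and their summed level was between 1070 and 1119 in WT and between 1903 and 2238 in CSE-KO. Most of the WT sum was Cd14, which fell from 788, 775 and 775 to 315, 216 and 187. No median fold is given, since Adgre1, Ptprc, Itgam, Marco and Spi1 were listed at 0 throughout WT. All 5 tested mesothelial markers rose (median log2 fold change 3.70). Their sums were between 208 and 223 in WT and between 796 and 952 in CSE-KO. The median depends on the pseudocount, since Wt1, Msln and Upk3b were near 0 in WT. Most of the mesothelial WT sum was Krt19, which rose from 188, 182 and 186 to 524, 563 and 562. Krt19 also stands in the epithelial list and was the gene that rose there, while Krt18 and Krt8 did not pass and Hopx fell. The part of macrophage and mesothelial transcripts in the rises of Spi1, Runx1, Ets1 and the GATA and SOX relatives was not tested. Lymphocyte markers had rows for 5 of 17 genes, with sums of 145 to 157 and 232 to 245. Nearly all of these sums was Lck, the only gene tested, which rose from 141, 137 and 139 to 226, 238 and 231. Klrb1c, Cd79a, Cd22 and Cd247 lay between 0 and 8 in every library. Mast cell, megakaryocyte and erythroid markers had rows for 10 of 17, with sums of 124 to 151 and 172 to 190, and of the 4 tested 3 rose and 1 fell. Of mural markers 5 rose and 3 fell among 9 tested (median 0.53, sums of 1116 to 1182 and 1732 to 1863), of fibroblast markers 1 rose and 2 fell among 7 (median −0.13, with 5 changed when CSE-KO 3 was left out, sums of 1282 to 1365 and 1187 to 1533), and of epithelial markers 1 rose and 1 fell among 4 (median 0.175, with 1 changed when WT was counted as 1 sample, sums of 511 to 554 and 798 to 851).

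**Figure D4:**
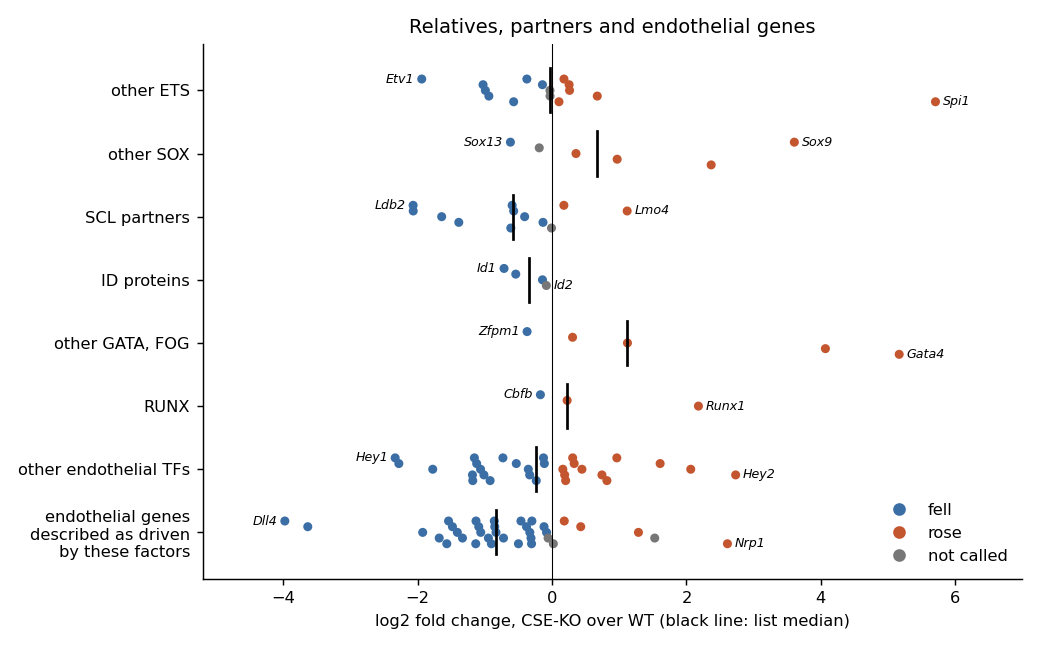
Log2 fold change (x axis, CSE-KO over WT) of each tested gene in the lists named on the y axis, 1 row per list; colours give the call, the black line the list median, and the lowest and highest gene of each list are named. SCL partners and endothelial genes lie mostly below 0, with medians of −0.58 and −0.83, and ETS relatives lie on both sides of 0 (median −0.03); values of genes at or near 0 in WT, such as Spi1 and Gata4, depend on the pseudocount.

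Other transcription factors of endothelium moved both ways. Of 29 tested, 17 fell and 12 rose (median −0.24). Meox1, a homeobox factor, fell 1.89-fold from 603.7 ± 12.3 to 318.7 ± 14.1, and Meis2, a cofactor of homeobox proteins, fell 1.66-fold. Zeb2, known for driving mesenchymal change, rose 4.18-fold from 230.3 ± 15.9 to 964 ± 49.0, and Rbpj, the DNA-binding partner of Notch, rose 1.67-fold. Over all lists of relatives, partners and other endothelial factors, 39 of 74 tested genes fell and 30 rose, with a median of −0.14. Of all tested genes, 39.0% fell and 38.3% rose, with a median of 0.0014. The same shares are the background for the counts of each list, and no list was tested as a set.

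Genes that these factors are known to drive in endothelium fell in 28 of 35 tested cases and rose in 4, with a median of −0.83 and 3 not passing. The list was drawn up with earlier results of these libraries known, so the count is no independent evidence. The angiopoietin receptor gene Tek read 885, 839 and 862 (WT) against 321, 263 and 291 (CSE-KO), a 2.96-fold fall. Ephb4, a venous receptor gene, fell 2.09-fold from 1640 ± 15.1 to 786.3 ± 41.6, and Rasip1, needed for vessel lumens, fell 1.78-fold from 1101 ± 6.56 to 617.3 ± 7.23. Against this, Thbd, the gene of the anticoagulant thrombomodulin, rose 2.44-fold from 773.3 ± 14.2 to 1886 ± 29.8, and Nrp1, a coreceptor of VEGF, rose 6.11-fold from 71.3 ± 6.51 to 437 ± 14.7. Pan-endothelial markers, all 16 of which also stand in that list, fell in 14 of 16 and rose in 0 (median −0.86), with Mmrn2 falling 1.81-fold and Tie1 1.82-fold, and Emcn and Vwf did not pass. Their summed level was between 21892 and 22372 in WT and between 14170 and 15216 in CSE-KO, and whether the fall of the factors bears on theirs was not tested.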

How the data were processed

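RNA from 6 libraries of mouse lung endothelial cells was sequenced. Per the labels' protocols, 300 ng of total RNA per library went into a stranded mRNA kit, with 75 bp sequenced from 1 end. Per the submitters' processing notes, Trimmomatic 0.39, STAR 2.7.3a, Picard 2.21.7, featureCounts 1.6.5, DESeq2 1.26.0 and build mm10 were used, with no role or order given. The deposited table holds a whole-number score per gene, read from its values as a normalized count rounded by the authors, since recomputed size factors lay between 1.0026 and 1.0083. No header states the unit, and the totals only approximate read depth.

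Values were taken as log2(value + 0.5). Genes reaching 10 in 3 or more libraries, 13750 in number, entered limma 3.58.1 in R 4.3.3 (group model, mean trend, robust variances, two-sided), the form planned for normalized values. Fold changes are on this scale, which understates low genes. Ratios within families were compared by exact permutation over libraries. Exonic lengths came from GENCODE mouse release 21, which held 18940 of the 18956 IDs. The labels do not say that the same replicate numbers pair libraries, and the main model had no pairing. Deviations from the group means had correlations between −0.001 and 0.02 for the same numbers. Since the WT libraries differed by no more than counting noise, this check could not show whether libraries were paired.

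The members, the gene lists and the tests were chosen with earlier results of these data known. Named genes are the 9 members, known partners, in each list the 4 genes (or fewer) of lowest adjusted p, and the nearest patterns. Other genes were named after their values were seen, among them chromosomal neighbours, Spi1 and Gata4. Alternatives covered scaling, filters, pseudocounts, the variance model, a test against a fold of 1.2, a replicate block, left-out libraries, libraries counted as 1 sample, and a correction for reads that may have been lost as duplicates by position.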

Additional observations from a re-analysis of the deposited data

How the results depend on the processing

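The number of members that changed, 7 in the main test, was between 7 and 8 when each library was left out in turn, and the number of all tested genes that changed was between 10137 and 10636, against 10639. Against a fold of 1.2, 6711 genes and 6 members changed. With WT 1 to 3 counted as 1 sample and CSE-KO 2 and 3 as another, 4 members and 8225 genes changed, since Fli1 (−1.52, adjusted p = 0.07), Lyl1 (−2.69, 0.19) and Sox18 (−1.73, 0.25) lost their calls. That fit rests on 3 values and 1 residual degree of freedom, and the lone WT sample is assumed to vary like CSE-KO. The WT libraries differed by no more than counting noise (index 0.709 to 0.757, where 1 is counting noise), and CSE-KO 2 and 3 had an index of 0.86, though 1.06 in genes with few reads per base. With the replicate block, 8 members and 10440 genes changed, and Gata2 passed (adjusted p = 0.048). The block changed no other call among the members. Left-out libraries gave log2 fold changes of −1.75 to −1.52 for Fli1, −2.21 to −1.69 for Sox18, −3.39 to −2.68 for Lyl1, and −0.31 to 0.0852 for Sox17 (its sign turned without CSE-KO 2). Gata2 was called in 6 of 20 alternatives. The duplicate correction gave −2.26 for Sox18, −1.75 for Fli1 and −0.61 for Erg. It also gave family differences beyond the left-out ranges that follow, with −0.88 for Erg to Ets1, −2.03 for Fli1 to Ets1 and 2.09 for Sox17 to Sox18. Differences between members of a family kept their sign throughout, with left-out libraries giving 1.02 to 1.23 for Erg to Fli1, −0.80 to −0.72 for Erg to Ets1, −2.02 to −1.75 for Fli1 to Ets1, −0.45 to −0.03 for Sox7 to Sox17, 1.32 to 1.87 for Sox7 to Sox18, 1.42 to 1.90 for Sox17 to Sox18 and 2.16 to 2.82 for Tal1 to Lyl1. Signs turned for Ets2 (0.0185 with upper-quartile scaling and 0.0427 at equal totals) and for Rpn1, next to Gata2 (−0.008 without WT 2 and −0.0078 without CSE-KO 3, to 0.0166 without WT 1). Among 68 other genes, 1324 of 1354 values under alternatives kept direction and call, and 279 of 288 list counts stayed within 1.5 times. List counts were not made for the test against a fold of 1.2 or for the changed variance model. Against a fold of 1.2, Ldb1, Tcf12, Id3, Id4, Zfpm2, Cbfb, Runx2, Pecam1, Trmt1 and Stil lost their calls. The spread between libraries of unknown independence, and the scores of unstated unit, limit all of these values.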
